A study of Mus musculus with 576 samples.

Results

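LPS was set against control within 1 class of single haematopoietic stem cells (HSCs), those sorted as high for a p27 marker. The cells were mouse bone marrow cells from femurs and tibias, sorted by surface proteins as positive for CD150, cKit and Sca1 and negative for CD48. The labels call them long-term HSCs, and 1 full-length library was made from each. Members were the wells labelled p27_high in the control table and in the LPS_treated table with 50000 or more gene reads and 1000 or more genes. Of 96 wells in each group, 84 control and 93 LPS cells passed, 177 of the 547 cells kept in the whole series of 576. Lipopolysaccharide (LPS) is a component of the outer membrane of Gram-negative bacteria. The series title ties the p27 marker to G0, in which cells rest without dividing, and p27 itself is the CDK inhibitor encoded by Cdkn1b. Strain, age, number of animals, LPS dose and the time since LPS were not stated in the sources used here. No label ties a cell to an animal, so each group counts as 1 sample, no difference was tested, and counting intervals cover counting error only. The control and LPS cells also stand in separate tables, so treatment and table cannot be told apart.

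LPS is sensed by the receptor Tlr4 with its partner Ly96 (MD-2). Separate adaptor routes lead from it, through Myd88 and Tirap to NF-kB and inflammatory genes, and through Ticam1 (TRIF) and Ticam2 (TRAM) to interferon regulatory factors and type I interferon. Interferon then acts through JAK kinases, STAT factors and Irf9 on promoters that carry an interferon-stimulated response element. HSCs express parts of this machinery, and interferon and LPS are known to bring dormant HSCs into cycle.

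The gate could be followed in the RNA only in part. Kit was at 402 CPM (reads per 1000000 gene reads, summed over the cells of a group) in control and 308 in LPS cells. Slamf1, which encodes CD150, was at 62.8 and 61.2, with no read in 39 control and 49 LPS cells. Ly6a, which encodes Sca1, was at 331 and 1220 CPM, with no read in 19 control and 4 LPS cells. Cd48 was at 6.91 and 14.4 CPM, and Il7r had no read in either group. Cdkn1b, which encodes p27, was at 74.6 and 108 CPM, with a median cell at 43.1 and 68.4. Cd3e, Itgam, Ly6g, Adgre1, C1qa, Cdh5 and Siglech, single markers of T, myeloid, macrophage, endothelial and plasmacytoid dendritic cells, were each below 3 CPM in both groups. Other markers of these cell types were expressed. Summed over their lists, T and NK cell markers were at 68.2 and 62.3 CPM and macrophage markers at 58.44 and 86.35. Neutrophil and monocyte markers were at 1196 and 947, endothelial markers at 326.5 and 199, and dendritic cell markers at 135 and 246.5. Counts for these lists and some of their members are given further on.

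Summed gene reads were 21714440 in control and 33295314 in LPS cells, with 52163 to 1020830 and 72577 to 1528164 per cell. Mitochondrially encoded genes took a median of 6.13% and 5.47% of gene reads. Control cells numbered 1 to 32 stood apart by their ERCC spike-in RNA, synthetic transcripts added to each well. Their median was 49264 spike-in reads, against 11174 in control cells 33 to 96 and 11425 over all LPS cells. Values after spike-in scaling are therefore given with all cells and without cells 1 to 32 of both groups. Leaving these out also drops 29 LPS cells, so such values change both the scaling and the cells counted. Cells 1 to 32 of the p27 low and negative control classes had medians of 51979 and 59247 spike-in reads, against 10540 and 12014 in their cells 33 to 96. In LPS cells 1 to 32 the medians were 10215, 11367 and 11226 in the high, low and negative classes. Of the 12 control p27 high wells left out, 9 were numbered 1 to 32. The cell numbers are those in the column labels, and whether they mark a plate or batch is not given.

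Of 11121 genes with a mean of at least 5 CPM over both groups, 841 (7.56%) were past 2-fold higher in LPS cells and 1411 (12.7%) past 2-fold lower. A log2 fold here is the difference of log2(CPM + 1), LPS minus control, which understates the ratio of low genes. The median over all these genes was -0.10. Past 3 on this scale, the order of the counts turned, with 165 genes higher and 87 lower. Genes past 2-fold were sparse both ways. The median lower gene had a read in 25% of control and 16.1% of LPS cells, and the median higher gene in 15.5% and 30.1%. After scaling to spike-in reads the same split was 8209 higher and 250 lower, and without cells 1 to 32 it was 2013 and 964. This scaling used summed gene reads per summed spike-in read of each group. With all cells that ratio was 2.73 for LPS over control, against 1.53 from per-cell medians. Scaling by the ratio of medians, which would move the folds less, was not run. Directions below are shares of a cell's gene reads unless the spike-in value is given. List counts below stand against 7.56% higher and 12.7% lower over all genes measured.

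The promoters of 4 genes are shown because these genes had the largest fold of the interferon lists under the naming rule and a start in the promoter table. Each runs from 250 bases before to 50 after the transcription start, 5′ to 3′ on the gene's strand, from RefSeq on GRCm38.p6. Capitals mark GAAANNGAAA or its reverse complement, the letters searched for the interferon-stimulated response element (ISRE). Ifit3 lies on the plus strand at chr19:34583279-34583578, Rsad2 on the minus strand at chr12:26456403-26456702, Ifit1bl1 on the minus strand with starts in chr19:34601919-34602218 and chr19:34599378-34599677, and Cmpk2 on the plus strand at chr12:26468965-26469264.
Ifit3: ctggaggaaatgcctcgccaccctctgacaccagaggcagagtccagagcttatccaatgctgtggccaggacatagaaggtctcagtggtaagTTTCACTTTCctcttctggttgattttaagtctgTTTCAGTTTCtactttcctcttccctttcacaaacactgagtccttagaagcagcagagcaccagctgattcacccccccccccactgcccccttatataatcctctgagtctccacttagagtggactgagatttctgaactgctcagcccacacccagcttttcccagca
Rsad2: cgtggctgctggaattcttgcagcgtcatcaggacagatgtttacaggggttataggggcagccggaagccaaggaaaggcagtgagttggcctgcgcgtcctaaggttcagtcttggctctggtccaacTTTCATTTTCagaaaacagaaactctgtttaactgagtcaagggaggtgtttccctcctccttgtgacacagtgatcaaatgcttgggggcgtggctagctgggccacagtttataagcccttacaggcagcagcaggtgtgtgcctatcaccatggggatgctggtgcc
Ifit1bl1, first start: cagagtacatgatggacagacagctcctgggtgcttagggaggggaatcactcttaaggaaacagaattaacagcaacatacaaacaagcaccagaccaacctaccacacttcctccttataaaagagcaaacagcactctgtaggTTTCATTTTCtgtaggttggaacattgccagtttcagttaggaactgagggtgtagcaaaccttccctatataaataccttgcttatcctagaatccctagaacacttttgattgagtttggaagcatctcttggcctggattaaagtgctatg
Ifit1bl1, second start: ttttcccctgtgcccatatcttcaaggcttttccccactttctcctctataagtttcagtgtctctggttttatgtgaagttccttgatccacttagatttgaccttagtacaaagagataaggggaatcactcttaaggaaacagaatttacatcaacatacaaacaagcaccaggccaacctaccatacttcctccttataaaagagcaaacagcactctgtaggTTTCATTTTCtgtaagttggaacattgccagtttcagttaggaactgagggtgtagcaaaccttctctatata
Cmpk2: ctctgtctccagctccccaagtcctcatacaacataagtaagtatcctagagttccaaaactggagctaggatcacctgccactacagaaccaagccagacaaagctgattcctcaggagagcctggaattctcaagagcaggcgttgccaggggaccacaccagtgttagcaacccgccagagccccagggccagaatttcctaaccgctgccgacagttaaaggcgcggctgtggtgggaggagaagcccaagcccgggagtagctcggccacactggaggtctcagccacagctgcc

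Ifit3 had 2 matches, whose leftmost bases lay 156 and 122 bases before the start. Rsad2 had 1 match at 120 bases before, and the 2 starts of Ifit1bl1 had 1 each at 104 and 23 bases before. Cmpk2 had no match of these letters in this window. A match is a description of letters and not a bound site. The ISRE letters, searched on both strands, were found in 81 of 632 genes past 2-fold higher with a promoter in the table (12.8%), 30 of 1097 past 2-fold lower (2.73%), 334 of 8328 measured (4.01%) and 1079 of all 27025 genes in the table (3.99%). Within the lists, 22 of 40 antiviral genes and 9 of 10 interferon-inducible GTPase genes with a promoter held it. The NF-kB consensus was found in 10 of 15 NF-kB list members and in 4 of 10 chemokine promoters (Ccl9, Cxcl1, Cxcl10 and Cxcl2), against 12.1% of measured genes. The STAT site TTCNNNGAA was found in 71 of those 632 promoters (11.2%), in 8.49% of measured genes and in 6 of 10 GTPase promoters. An ISRE may overlap a STAT site, and both were counted. Cxcl10 was the 1 measured chemokine gene of 10 with the ISRE letters.

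Chemokine genes had the largest median log2 fold of the 42 lists. Of 14 measured chemokine genes, 11 were past 2-fold higher and none past 2-fold lower, with a median log2 fold of 4.03, or 5.43 with genes that had no control read set to a bound. Cxcl10, a ligand of Cxcr3 that attracts T and NK cells (mm10 chr5:92346638-92348889), was at 1.52 CPM in control (95% Poisson interval 1.05 to 2.13) and 5745 in LPS cells (5719 to 5770.5), a log2 fold of 11.15. All 33 control reads came from 1 cell. Over the LPS cells Cxcl10 ran from 9.92 to 36162 CPM with a median of 166 and an upper quartile of 6379. Cxcl11, another Cxcr3 ligand next to it, had no control read and 1047 CPM in LPS, at least 7576-fold higher against a floor of 3 reads over the control group. GENCODE lists it as a polymorphic pseudogene, and both genes overlap Art3 on the other strand, which was at 1.43 and 8.86 CPM. Cxcl9, the third of these ligands, had no control read and 101 CPM, at least 730-fold higher on the same floor, with 35.01% of its reads in 1 cell.

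Ccl5, a chemokine for T cells and monocytes, was at 1.57 and 2364 CPM, a log2 fold of 9.85, and ran from 0 through a median of 46.4 to 19423 CPM over LPS cells. Among cytokines, 4 of 11 measured genes were past 2-fold higher and none lower. Il6, which drives the acute-phase response, had no control read and 222 CPM in LPS, at least 1609-fold higher. Its median LPS cell was at 0, 18 of 93 had at least 5 reads, and the highest was at 3149 CPM. Il27, an interleukin of the Il6/Il12 family, was at 1.15 and 31.7 CPM, and Tnfsf10, which encodes the death ligand TRAIL, at 54.99 and 128. Il1b was at 0.184 and 10.2 CPM with 5 LPS cells at 5 or more reads. Il1rn, the antagonist of the interleukin 1 receptor, had 1 control read and 152 CPM in LPS, with 8 cells at 5 or more reads and 39.6% of its reads in 1 cell.

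Antiviral interferon-stimulated genes were higher almost throughout. Of 51 measured, 45 were past 2-fold higher and none past 2-fold lower, and all 51 had a positive log2 fold, from 0.19 to 8.09, with a median of 2.64. Rsad2, which encodes viperin (mm10 chr12:26442746-26456452), was at 8.43 CPM in control (7.25 to 9.74) and 2571 in LPS cells (2554 to 2589). In control its median cell was at 0 and its highest at 403 CPM, and in LPS the median was 80.2, the upper quartile 1327 and the highest 20559. Cmpk2, a mitochondrial nucleotide kinase encoded beside it (chr12:26469204-26479837), was at 5.85 and 917 CPM, a log2 fold of 7.07. Ifit1, which binds foreign RNA ends, was at 7.55 and 982 CPM. Ifit3 (chr19:34583531-34588731) had 1 control read and 284 CPM in LPS, and Ifit1bl1 1 control read and 98.5 CPM. Ifit3 has a near copy, Ifit3b, and reads shared by them may be split or lost. Ifi204, a nucleic acid sensor of the p200 family with many near copies, had no control read and 99.4 CPM, at least 719-fold higher.

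Interferon-inducible GTPases, which attack the vacuoles of intracellular pathogens, differed alike. Of 15 measured, 14 were past 2-fold higher and none past 2-fold lower, with a median log2 fold of 2.74, and Gbp8 was the 1 with a negative value (-0.35). Gbp2 was at 58.3 and 918 CPM, Gbp5 at 12.99 and 218, and Iigp1 at 16.3 and 542. Gbp9 had the largest log2 fold, 6.12, from 0.599 to 109.8 CPM. The upper quartile of LPS cells was at 602 CPM for Gbp2 and 666 for Iigp1, while the medians were 49.1 and 18.8. These families hold close paralogs, so the split of reads between members is uncertain.

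**Figure D1:**
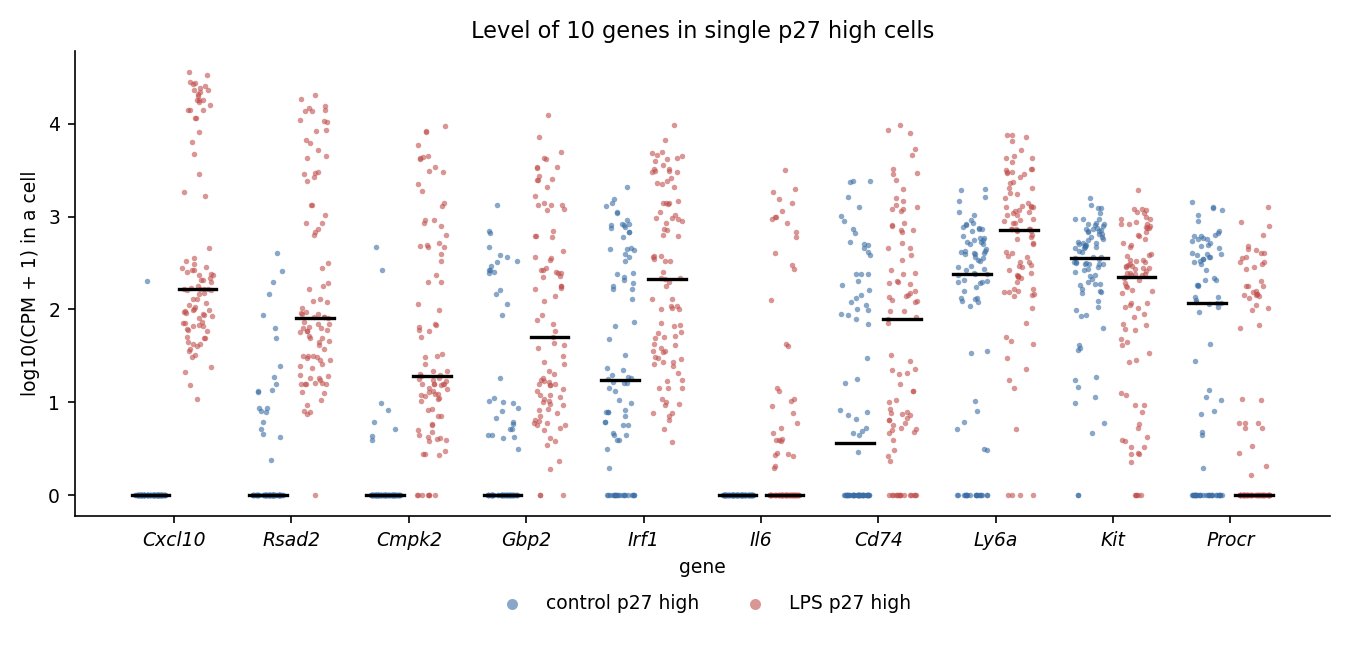
Level of 10 genes in single cells, as log10(CPM + 1) on the y axis, with 1 point per cell (84 control, 93 LPS) and black bars at the median. Cxcl10 separates into a lower and an upper group of LPS cells, Il6 is at 0 in the median LPS cell, and Ly6a, Kit and Procr overlap between the groups.

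The sums hide a wide spread between cells. Summed over its 54 genes in the table, the antiviral list took a median of 5031 CPM per control cell (1169 to 14101) and 8403 per LPS cell (2505 to 84615). In 29 of 93 LPS cells (31.2%, exact 95% interval 21.98 to 41.6) the sum was above the highest control cell, and the other 64 lay within the control range. The lower quartile of LPS cells, 6031 CPM, was near the upper quartile of control cells, 6167. For the GTPases the median was 898 and 1374 CPM, and 29 LPS cells lay above the highest control cell. They were the same 29 cells. For chemokines the number was 28 and for the NF-kB list 27, and every one of those cells was among the 29. For acute-phase and granule genes 23 of 24 such cells were among them, and for interferon regulatory factors 24 of 25. The 29 came from all ranges of cell number, with 11 of 29 cells numbered 1 to 32, 10 of 32 from 33 to 64 and 8 of 32 from 65 to 96. These counts describe where cells fell against the control range, and no group of cells was formed from them for a comparison.

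**Figure D2:**
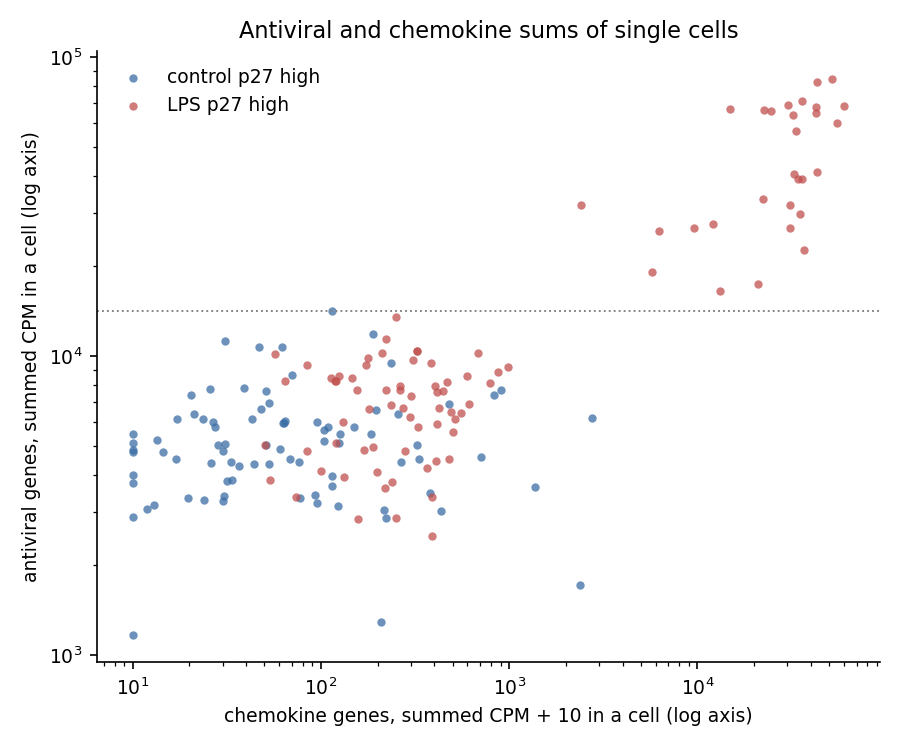
Summed CPM of chemokine genes plus 10 (x axis, log) against summed CPM of antiviral genes (y axis, log), 1 point per cell, with a dotted line at the highest control cell, 14101 CPM. LPS cells above the line number 29. The other 64 lie within the control range of antiviral sums but toward higher chemokine sums, with 38 of 84 control cells below the lowest LPS cell at 40.6 CPM. Low chemokine sums in LPS cells may include reads passed between wells, which was not tested.

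The chemokine sums of LPS cells left a gap, and their lower quartile, 189.6 CPM, was above the upper quartile of control cells, 121.7. Of 93 cells, 64 were below 1000 CPM, the highest of them at 973, 4 were between 1000 and 10000, the lowest of those at 2394, and 25 were at 10000 or more, up to 60155. Of 84 control cells, 81 were below 1000 CPM and none reached 10000. Over LPS cells the Spearman correlation between the antiviral, GTPase, NF-kB and chemokine sums was 0.64 to 0.75 (n = 93), against -0.05 to 0.30 over control cells (n = 84). The sums share no gene but share each cell's read total. The correlation with gene reads was 0.05 for the antiviral, 0.14 for the NF-kB and -0.15 for the chemokine sum.

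Low levels of these genes in LPS cells, low chemokine sums included, may not be expression, and this was not tested. Every one of the 93 kept LPS cells had at least 5 Cxcl10 reads, with a lower quartile of 23 and a median of 41, while 83 of 84 control cells had none. The 3 LPS wells left out for few reads, at 3405, 3719 and 7878 gene reads, held 8, 2 and 5 Cxcl10 reads, and none of the 12 control wells left out held one. Whether reads passed between wells of the LPS table was not tested. Shares of cells with any read are therefore not used for these genes, and counts of LPS cells with at least 5 reads may include such reads.

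Genes that sense LPS did not differ in 1 direction. Of 16 measured members of the receptor and adaptor list, 2 were past 2-fold higher (12.5%, against 7.56% of all genes measured). Past 2-fold lower were 4 (25%, against 12.7%), and the median log2 fold was -0.06. Tlr4 was at 12.2 and 32.7 CPM, with a median of 0 in both groups and 12 LPS and 5 control cells at 5 or more reads. In control, 49.8% of its reads came from 1 cell. Myd88, the adaptor shared by most Toll-like receptors, was at 60.5 and 153 CPM, with 45 LPS and 22 control cells at 5 or more reads. Ticam1 was at 30.4 and 46.9 CPM. Lower were Ly96 (26.5 and 6.82 CPM), Tirap (21.8 and 3.57), Ticam2 (9.58 and 1.62) and Tlr6 (12.9 and 0.991), a partner of Tlr2. All 4 rested on 4 to 10 control cells with at least 5 reads, and Ticam2 had a log2 fold of 0.53 without cells 33 to 64.

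Interferon receptors had no common direction. Of 5 measured genes of the interferon ligand and receptor list, 2 had a positive and 3 a negative log2 fold, with a median of -0.35. Ifnar2, a chain of the type I receptor, was at 77.6 and 111 CPM, and Ifngr1, a chain of the interferon gamma receptor, at 315 and 209. Ifngr2, the other chain of that receptor, was at 41.3 and 74.1. Il10rb, which the type III interferon receptor shares with that of Il10, was at 72.8 and 26.3, the 1 of 5 measured past 2-fold and lower. Downstream, Stat2, a subunit of the factor that binds interferon response elements, was at 35.05 and 163 CPM, past 2-fold higher. Jak1 was at 341 and 553 CPM, a log2 fold of 0.70.

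Of 8 measured interferon regulatory factors, 3 were past 2-fold higher and none lower. Irf7, which amplifies type I interferon production, was at 17.3 and 452 CPM, and Irf1, an early factor of both interferon types, at 243 and 1198. Irf1 was broad in control cells already, with a highest control cell at 2099 CPM, against 9771 in LPS. Irf5 was at 56.8 and 122 CPM, with 50.04% of the control reads in 1 cell. Of 8 SOCS genes, feedback inhibitors of cytokine signalling, Socs3 was at 14.8 and 100 CPM and Socs1 at 17.4 and 35.7. Socs2, an inhibitor of growth hormone and Stat5 signalling, was lower, at 71.8 and 16.97.

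NF-kB subunits and feedback genes were higher as a list. Of 19 measured, 15 were past 2-fold higher, none lower, and all 19 log2 folds were positive, with a median of 1.28. Cd83, a surface protein of activated cells, had no control read and 98.4 CPM in LPS, at least 712-fold higher. Traf1, an adaptor of TNF receptors, was at 13.6 and 236 CPM, Relb, a subunit of the non-canonical arm, at 16.03 and 169.9, and Nfkbiz at 25.7 and 139.5. The inhibitor Nfkbia was at 252 and 1250 CPM and the subunit Rela at 223 and 269, both named after their values were seen. Tnfrsf9, which encodes the co-stimulatory receptor 4-1BB, had no control read and 73.6 CPM, at least 533-fold higher, and overlaps Camta1 on the other strand.

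Several inflammatory receptors and transcription factors stood beside them. Fas, a death receptor, was at 11.1 and 76.2 CPM, and Il6st, the signalling chain shared by Il6 family receptors, was lower at 49.3 and 13.4. Of 17 immediate early and stress genes, 6 were past 2-fold higher and 1 lower. Atf3, a stress-induced repressor, had 3 control reads and 91.3 CPM in LPS, a ratio of 661 (95% interval 226 to 3208). The interval counts pooled reads as independent and leaves out the spread between cells. The median LPS cell was at 0, and 13 LPS cells had at least 5 Atf3 reads. Among 10 myeloid transcription factors 4 were past 2-fold higher and none lower. Cebpd was at 4.24 and 154 CPM, Batf at 88.3 and 275, and Spi1, which encodes PU.1, at 168 and 364, with medians of 130 and 184 per cell.

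Antigen presentation genes differed less. In the MHC class I list 1 of 21 genes was past 2-fold higher and none lower, and the median log2 fold was 0.31. The gene past 2-fold was Tap1, a subunit of the peptide transporter, at 222 and 562 CPM, with medians of 32.1 and 181 per cell. Tapbp, which loads peptide, was at 263 and 481, and the proteasome activator subunit Psme2 at 31.3 and 59.3. In the MHC class II list, 2 of 9 genes were past 2-fold higher and none lower, with a median of 0.01. They were the invariant chain Cd74, at 176 and 858 CPM, and the protease Ctss, at 32.2 and 74.6. The class II chains H2-Ab1 (105 and 149 CPM) and H2-Eb1 (47.7 and 29.8) were not past 2-fold. Of 10 checkpoint and phagocytosis signals 4 were past 2-fold higher. Cd274, which encodes PD-L1, was at 31.8 and 169 CPM, Cd86 at 17.1 and 60.8, and Cd40 had no control read and 26.7 CPM, at least 193-fold higher, with 47.02% of its reads in 1 cell.

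Among 6 measured acute-phase and granule genes 3 were past 2-fold higher and none lower. Serpina3g, a protease inhibitor known in HSCs, was at 1780.5 and 6404 CPM, with medians of 1566 and 2916 per cell and at least 5 reads in every LPS cell. Serpina3f was at 54.5 and 1607 CPM, and these are near copies in 1 cluster. Lcn2, an iron-scavenging acute-phase protein, had 3 control reads and 106 CPM, with 73.9% of its reads in 1 cell. Ranked genes outside the lists included Steap4, a metalloreductase, and Lad1, an anchoring filament protein. Both of these had no control read, with 137 and 82.4 CPM in LPS, at least 988-fold and 596-fold higher. Gm10851, also ranked, was at 2.16 and 865 CPM, but overlaps Pfkfb3, a regulator of glycolysis, on the other strand. Pfkfb3 was at 20.8 and 169.7 CPM, and without a known strand setting their reads cannot be told apart.

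**Figure D3:**
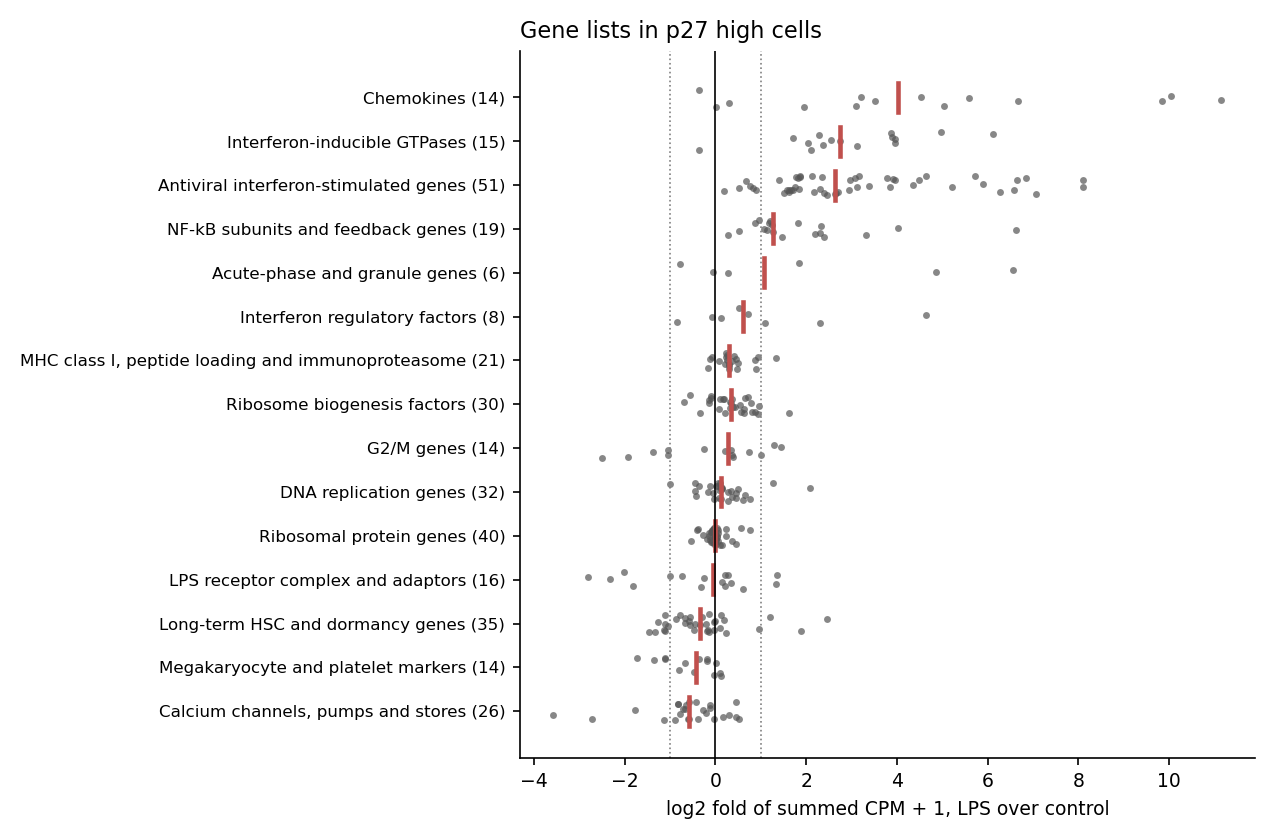
Log2 fold of each measured member (points) and the list median (red bars) for 15 gene lists, LPS over control in p27 high cells, with the number of measured members in brackets and dotted lines at 2-fold. Chemokine, GTPase, antiviral and NF-kB lists lie to the right of 0, and ribosomal protein genes are centred at 0.

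Long-term HSC and dormancy genes mostly had negative log2 folds, 27 of 35 measured, with a median of -0.34 against -0.10 over all genes. Past 2-fold lower were 8 (22.9%, against 12.7% of all genes) and past 2-fold higher 3 (8.57%, against 7.56%). Procr, which encodes the HSC marker EPCR, was at 228 CPM in control (221 to 234) and 89.4 in LPS (86.2 to 92.6), with medians of 117 and 0 and maxima of 1419.8 and 1283 per cell. With every cell thinned to 50000 reads, Procr had a read in 57.1% of control (exact interval 45.9 to 67.9) and 38.7% of LPS cells (28.8 to 49.4), and unthinned in 66.7% and 47.3%. In p27 negative cells, where Procr was at 15.99 and 17.4 CPM, the thinned shares were 27.4% and 13.04%, at median depths of 390369 and 439918 reads against 229696 and 284633 in p27 high cells. Esam, an adhesion molecule of HSCs, was at 343 and 142 CPM, and Tek, the angiopoietin receptor, at 51.4 and 17.9. Txnip, a negative regulator of glucose uptake, was at 2236 and 1033 CPM, with medians of 2323 and 727 over cells that nearly all held it. After spike-in scaling the log2 folds of Procr, Esam and Txnip were 0.10, 0.18 and 0.34, but -1.01, -0.72 and -0.66 without cells 1 to 32 as well. The list median was 1.04 with all cells and -0.11 without them.

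Higher in the same list were Ly6a and Egr1. Ly6a, which encodes the sorting marker Sca1 and is itself interferon-inducible, was at 331 CPM (323 to 339) and 1220.3 (1208 to 1232), with medians of 238 and 724 per cell and overlapping ranges. A gate on Sca1 protein can select on this gene. Egr1, an early growth response factor linked to HSC quiescence, was at 83.5 and 467 CPM. Cd34, another gate-related gene, was at 543 and 344 CPM, and Flt3, a marker of multipotent progenitors, at 51.2 and 35.95. Over LPS cells, the Spearman correlation with the antiviral sum was 0.65 for Ly6a, 0.66 for Cd74, -0.52 for Kit, -0.52 for Hlf and -0.48 for Cd34 (n = 93). Over control cells it was 0.45, 0.35, 0.04, 0.15 and -0.26 (n = 84). Hlf encodes a transcription factor of HSCs. The points share each cell's read total, and these 5 of 12 genes computed were chosen after their values were seen.

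Cell cycle genes gave no common direction. In the G2/M list, 14 of 30 genes were measured, 8 with a positive and 6 with a negative log2 fold. Past 2-fold higher were 2 (14.3%, against 7.56% of all genes measured) and lower 5 (35.7%, against 12.7%). The median log2 fold was 0.28, but 0.04 with each cell weighted equally and -0.17 without the top cell of each gene. Plk1, a mitotic kinase, was at 10.5 and 1.02 CPM and Kif23, a kinesin of cytokinesis, at 29.8 and 7.15. Cdca8, a subunit of the chromosomal passenger complex, was at 6.26 and 18.8. None of these had 5 reads in more than 14 control or 8 LPS cells. The 30 genes summed to a median of 227 CPM per control and 177 per LPS cell. Of 32 replication genes, 2 were past 2-fold higher and 1 lower, with a median of 0.12. Rrm2, a subunit of ribonucleotide reductase, was at 13.9 and 62.1 CPM, and Pole, a replicative polymerase, at 129 and 63.8.

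Among 18 cyclins, CDKs and inhibitors, 1 was past 2-fold higher and 2 lower. Cdkn1a, the p53 target that encodes p21, was at 3.32 and 37.8 CPM, with 19 LPS cells and 1 control cell at 5 or more reads. Cdkn1c, which encodes p57 and marks dormant HSCs, was at 49.1 and 22.05 CPM, with 11 LPS and 22 control cells at 5 or more reads. Rbl2, an RB family protein of quiescent cells, was at 94.2 and 41.5 CPM. The log2 folds of Cdkn1c, Rbl2 and Pole were negative here and 0.29, 0.27 and 0.43 after spike-in scaling. Without cells 1 to 32 as well they were negative again, at -1.27, -0.36 and -0.48.

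The 15 genes ranked lower were sparse and belong to no common list. Snx32, a sorting nexin, was at 35.2 and 0.240 CPM, a log2 fold of -4.87, with 11 control cells and 1 LPS cell at 5 or more reads. It overlaps Cfl1 on the other strand, which was at 391.5 and 445 CPM. Zfp30, a zinc finger protein, was at 32.1 and 0.150 CPM, and Ankrd13d, a ubiquitin-binding protein, at 70.3 and 2.31. Myl10, a myosin light chain, was the most widely detected of the 15 in control, with 26 control and 6 LPS cells at 5 or more reads and 41.2 and 4.66 CPM. Pygm, the muscle form of glycogen phosphorylase, was at 92.4 and 10.9 CPM with 20 control and 6 LPS cells at 5 or more reads. Fut7, a fucosyltransferase that makes selectin ligands, was at 64.8 and 6.07, and Gnaz, a G protein alpha subunit, at 13.6 and 0.871. Cdc14b, Sdc2, Krba1, Ift81, Acap3, 2610008E11Rik, Lurap1 and Adcy9 had log2 folds from -4.13 to -2.60. The median cell of every one of the 15 except Myl10 was at 0 in both groups.

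The series title concerns cytoplasmic calcium, and the list of calcium channel, pump and store genes had more negative than positive log2 folds. Of 26 measured, 4 were past 2-fold lower (15.4%, against 12.7% of all genes measured) and none higher, and 21 had a negative log2 fold. The median was -0.58, against -0.10 over all genes measured. In p27 low and negative cells the list median was -0.55 and -0.003. Itpr3, an IP3 receptor of the endoplasmic reticulum, was at 19.1 and 0.691 CPM, Trpm4, a calcium-activated cation channel, at 17.3 and 1.77, and Slc8b1, the mitochondrial sodium-calcium exchanger, at 26.2 and 6.998. Trpc6, a receptor-operated channel, was the broadest of the 4, at 115 and 52.4 CPM with 24 control and 20 LPS cells at 5 or more reads. The list summed to a median of 2789.6 CPM per control and 2208 per LPS cell, and the ranges overlapped. After spike-in scaling its median log2 fold was 0.94, and without cells 1 to 32 as well -0.05.

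Cell death and adhesion genes were mixed. Of 19 inflammatory cell death genes 3 were past 2-fold higher and none lower, with a median of 0.19. Casp4, which encodes the mouse sensor of cytosolic LPS, was at 54.7 and 167 CPM, and Bcl2l11, a pro-apoptotic Bcl-2 family member, at 10.3 and 48.5. Of 17 homing and adhesion receptors 3 were past 2-fold higher (17.6%, against 7.56% of all genes measured). Past 2-fold lower were 4 (23.5%, against 12.7%), with a median of -0.20. Itgb7, an integrin subunit of gut homing, was at 58.03 and 14.4 CPM. Vcam1, an adhesion molecule, was at 0.184 and 12.4 CPM, but 93.5% of its LPS reads came from 1 cell, and its log2 fold was 0.68 without the top cell of each group.

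Housekeeping lists were near 0 on the CPM scale. None of 40 ribosomal protein genes was past 2-fold, and their median log2 fold was -0.01. Of 43 respiratory chain genes 1 was past 2-fold higher, with a median of 0.08. Ribosome biogenesis factors had a median of 0.35, with 1 of 30 past 2-fold higher. It was Rrp12, which exports pre-ribosomes, at 16.3 and 52.1 CPM. Of 22 glycolysis genes 2 were past 2-fold higher and 1 lower, the last being Pdk2, a kinase that restrains pyruvate entry, at 67.7 and 25.3 CPM. In the redox and iron list Tfrc, the transferrin receptor, was at 5.57 and 44.5 CPM and Hmox1, haem oxygenase 1, at 49.4 and 16.9, with 72.2% of the LPS reads of Hmox1 in 1 cell.

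Markers of other cell types were set beside these results. Over all genes measured, 7.56% were past 2-fold higher and 12.7% lower, with a median log2 fold of -0.10. Of 14 megakaryocyte and platelet markers, 4 were past 2-fold lower (28.6%) and none higher, with a median of -0.43. Vwf, the von Willebrand factor, was at 55.5 and 25.2 CPM, and its log2 fold was 0.14 with each cell weighted equally, 0.31 after spike-in scaling and -3.71 after it without cells 1 to 32. Gata1, an erythroid and megakaryocyte factor, was at 24.8 and 8.95 CPM, and Hbb-bt, an adult globin, at 5.71 and 30.03. Macrophage markers had 4 of 12 measured, 2 of them past 2-fold higher and none lower, with a median of 0.85, and summed to 0 to 602 CPM per control and 0 to 889 per LPS cell. The higher members were Vcam1 and the receptor kinase Axl, while Adgre1, which encodes F4/80, was at 0 and 0.45 CPM. Neutrophil and monocyte markers had 4 of 16 measured, 1 past 2-fold higher and none lower, with a median of -0.35, and summed to 133 to 3366 and 27.6 to 2533 CPM. The higher member was Csf3r, the G-CSF receptor, at 57.6 and 132 CPM, while Ly6g was at 0 and 0.42. Dendritic cell markers had 3 of 9 measured, 1 past 2-fold higher and none lower, and summed to 0 to 829.7 and 0 to 1270.1 CPM, with medians of 80.5 and 181 per cell. The higher member was Bst2, which is also on the antiviral list, while Itgax and Cd209a had no read in either group. Endothelial markers had 4 of 11 measured, 1 past 2-fold lower and none higher, with a median of -0.54, and summed to 0 to 2276 and 0 to 1099.5 CPM. The lower member was Emcn, endomucin, at 96.1 and 40.9 CPM, while Cdh5 was at 0 and 0.03. B cell markers summed to 0 to 843 and 0 to 823 CPM and T and NK cell markers to 0 to 616 and 0 to 768, with 1 of 9 and 2 of 11 measured and none past 2-fold. Erythroid markers had 7 of 13 measured, 2 past 2-fold higher and 1 lower, with a median of -0.01. They summed to 172 to 8283 and 105 to 11762 CPM. Mesenchymal stromal markers had 1 of 10 measured, past 2-fold lower, and summed to 0 to 633 and 0 to 778 CPM. Mast cell and basophil markers had 1 of 7 measured, not past 2-fold, and summed to 0 to 1741 and 0 to 1697 CPM. The part of such cells in the results was not tested.

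Gene reads per spike-in read, a measure of RNA content, had a median of 16.2 per control cell and 24.9 per LPS cell, a ratio of 1.53. From summed reads, which set the spike-in scaling, the ratio was 2.73. Control cells 1 to 32 had a median of 4.45. Without cells 1 to 32 in both groups the medians were 19.03 and 22.5, a ratio of 1.18.

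**Figure D4:**
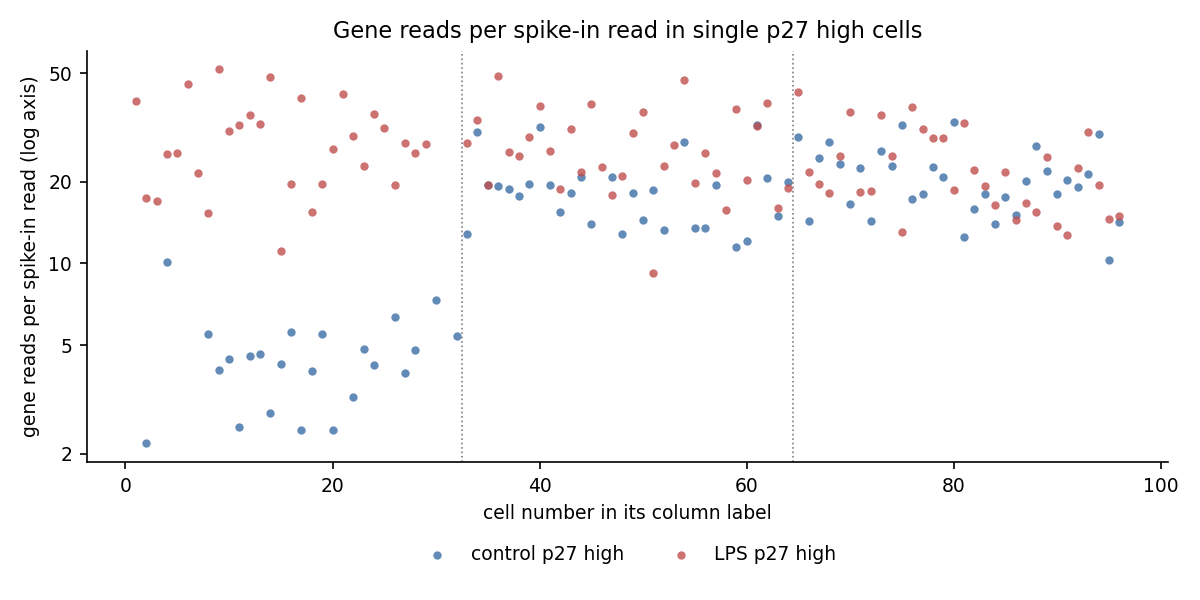
Gene reads per spike-in read (y axis, log) by the cell number of the column label (x axis), 1 point per cell, with dotted lines after numbers 32 and 64. Control cells 1 to 32 have a median of 4.45 and lie below most others, and from 33 on the groups overlap.

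The comparison in the other p27 classes is given side by side. The median log2 fold was 2.64, 2.99 and 2.77 for antiviral genes in the high, low and negative classes, 2.74, 3.54 and 3.73 for GTPases and 1.28, 1.75 and 1.87 for the NF-kB list. It was 4.03, 5.26 and 4.26 for chemokines, -0.34, -0.93 and -0.33 for HSC and dormancy genes and 0.28, -1.58 and -0.18 for G2/M genes. Each class has its own control and LPS cells, 1 sample each, so differences between classes were not tested. The LPS cells above the highest control cell of their own class by GTPase sum were 29 of 93 (31.2%), 44 of 90 (48.9%) and 44 of 92 (47.8%), with exact intervals of 21.98 to 41.6, 38.2 to 59.7 and 37.3 to 58.5. By antiviral sum they were 29, 26 and 44, with the highest control cell at 14101, 33328 and 13335 CPM. These limits are each set by 1 control cell. Ly6a had log2 folds of 1.88, 3.14 and 3.17, Egr1 2.47, 1.41 and 0.72, and Il6 7.80, 6.06 and 4.91. The 15 ranked higher genes were higher in all 3 classes. Of the 15 ranked lower, 14 were lower in p27 low and 10 in p27 negative cells.

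**Figure D5:**
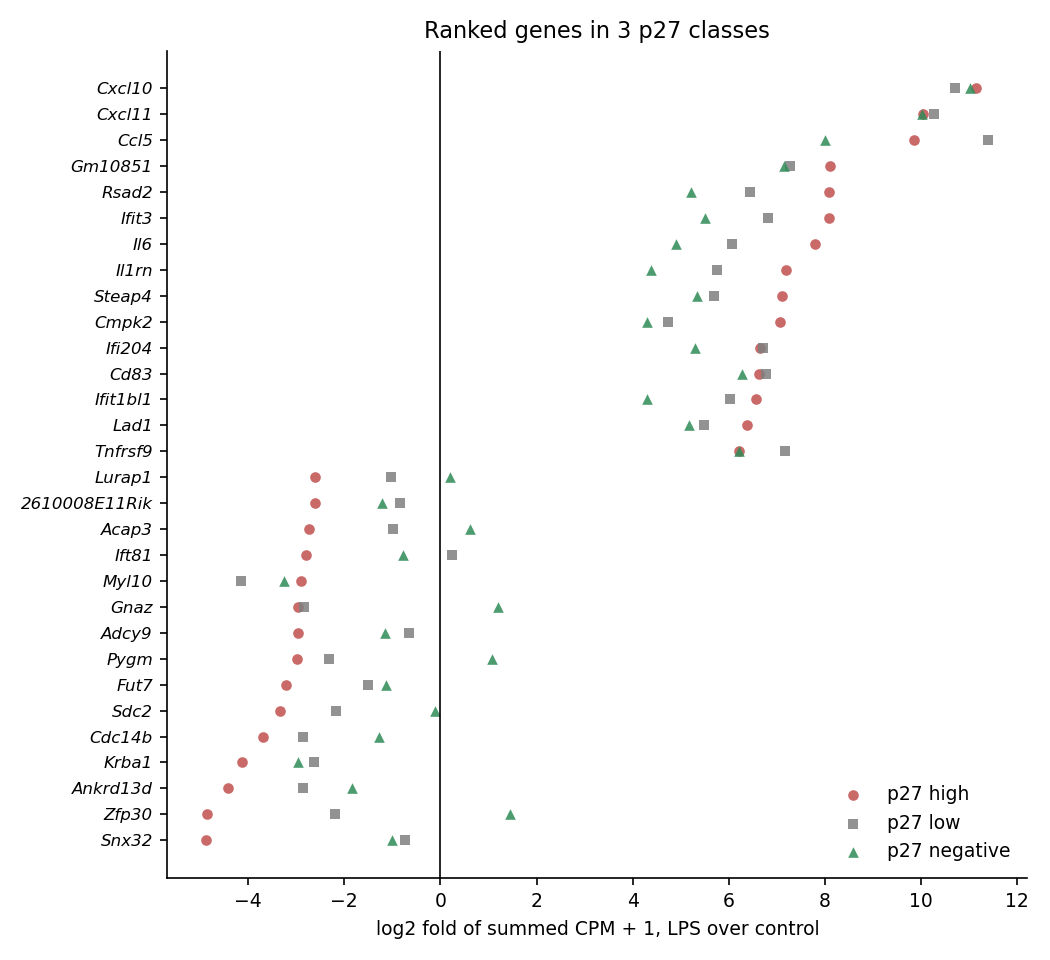
Log2 fold of LPS over control (x axis) for the 30 ranked genes in p27 high, low and negative cells, 1 point per class. The 15 higher genes lie right of 0 in all 3 classes, and Zfp30, Pygm, Gnaz, Acap3 and Lurap1 lie right of 0 in p27 negative cells.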

How the data were processed

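Single-cell RNA libraries of p27 high cells were compared between control and LPS, with 96 wells and 1 sample in each group. The authors deposited raw counts of reads per gene for each cell. Per the submitters' processing notes, the tools were GSNAP and HTSeq 0.6.0 and the build was mm10; the annotation release, strand setting and read filters were not stated in the sources used here. Each table held 46078 genes, 92 spike-ins and 5 summary counts that name no gene, which stayed out of totals. In p27 high wells 31.2% of reads lay in genes, 2.08% in spike-ins, 6.85% in no feature and 3.61% were ambiguous, while 56.3% were not aligned. Symbols and coordinates came from GENCODE M21 by gene ID, which named 45143 genes. No pair of cells held identical counts. Some items are not reported here.

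Wells with at least 50000 gene reads and 1000 genes were kept, without clustering or doublet removal. CPM were computed from reads summed over kept cells, and folds from log2 values after adding 1 CPM, for genes with a mean of at least 5 CPM. Where control had no read, the fold is a bound against 3 counts over the group. Libraries carry no molecular identifiers, so reads are not independent molecules. Named genes had at least 10 CPM and a read in at least 20% of cells in the higher group. They also had the same direction in summed CPM, in per-cell means, and without the top cell, and the first 15 each way by the smallest of these 3 folds were taken. Up to 4 members of each of the 42 lists with the largest fold, the gate genes and Tlr4, Ly96, Myd88 and Ticam1 were added. The members and lists were chosen with earlier results of these data known.

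Alternatives covered the scaling (TMM from edgeR 4.0.16, spike-ins), the cells kept, the top cell, thinning, the pseudocount, the filter and the fold limit. Leaving out ranges of cell number was added after the data were seen. Python 3.11.15, numpy 2.4.6, pandas 2.3.3 and scipy 1.17.1 were used, and the procedure was tested on simulated data.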

Additional observations from a re-analysis of the deposited data

Results flagged for a closer look

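For 11 of 128 named genes the log2 fold of LPS over control was past 2-fold in opposite directions in p27 high cells and in another p27 class. Each class and treatment is 1 sample, so none of these differences was tested, and most of the 11 genes had reads in few cells. Many of the 128 were named for large folds in p27 high cells. The share of such genes over all genes measured was not computed, so the count is no result about the classes.

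Against p27 low cells, Tlr4, the LPS receptor, was at 1.35 in p27 high and -2.998 in p27 low cells. Plk1, the mitotic kinase, was at -2.51 and 1.04, and Cdca8, of the chromosomal passenger complex, at 1.45 and -3.49. Haem oxygenase Hmox1 was at -1.50 and 1.04, the integrin subunit Itgb7 at -1.94 and 1.596, and the ribosome biogenesis factor Rrp12 at 1.62 and -1.05. Against p27 negative cells, the zinc finger gene Zfp30 was at -4.85 and 1.45 in that order. Pygm, the muscle glycogen phosphorylase, was at -2.98 and 1.08, the G protein subunit Gnaz at -2.97 and 1.21, the pseudokinase Trib3 at -1.22 and 2.32, and the channel Trpm4 at -2.72 and 1.89.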

How the results depend on the processing

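With 1 sample a group, a setting can only move a value, and the cause of each move was not tested. No paired analysis was possible because each group is 1 sample and nothing ties a cell number in control to the same number in LPS. The 841 genes past 2-fold higher and 1411 lower became 1678 and 2264 with no filter on low values, 447 and 703 at a mean of 20 CPM or more, and 299 and 323 at a log2 limit of 2. TMM factors moved the median of all genes from -0.10 to 0.03 and the share of calls that were higher from 37.3% to 46.95%, with 1007 higher and 1138 lower. Spike-in scaling moved that median to 1.33, or 0.31 without cells 1 to 32, and gave 8209 genes higher and 250 lower, or 2013 and 964 without those cells. Under it the list medians were 4.08 for antiviral genes, 4.09 for GTPases, 2.71 for NF-kB genes, 1.76 for MHC class I, 1.04 for HSC and dormancy genes and 1.26 for G2/M genes. Without cells 1 to 32 the same medians were 2.75, 3.60, 1.46, 0.64, -0.11 and 0.83. Log2 folds that turned positive under spike-in scaling were 0.10 for Procr, 0.18 for Esam, 0.29 for Cdkn1c, 0.27 for Rbl2, 0.43 for Pole, 0.31 for Trpc6, 0.34 for Txnip, 0.029 for Pdk2, 0.19 for Trib3, 0.31 for Vwf and 0.22 for Emcn. None of these 11 was positive under spike-in scaling without cells 1 to 32, where they were -1.01, -0.72, -1.27, -0.36, -0.48, -0.73, -0.66, -0.39, -2.85, -3.71 and -0.70 in the same order. Vwf was also at 0.14 with each cell weighted equally and 0.12 with cells thinned to 50000 reads, and Ticam2 at 0.53 without cells 33 to 64. The ratio of gene reads per spike-in read, 1.53 from per-cell medians, was 2.73 from summed reads. The scaled values above rest on summed reads, and scaling by the ratio of medians was not run. Over the 38 lists with at least 3 measured genes, 70 of 646 recomputed medians moved by over 1.5-fold, and none of the medians past 2-fold turned sign. Spike-in scaling with all cells moved 37 of the 38 list medians. The median of HSC and dormancy genes, -0.34, turned sign under it, as did that of calcium genes, -0.58. That of G2/M genes, 0.28, was -0.17 once each gene's top cell was left out and -0.01 with no filter on low values. These are examples, and other medians short of 2-fold that turned sign are not listed. The B cell, T and NK cell, mesenchymal and mast cell lists had fewer measured genes and were given no median. Sparse genes depend most on single cells, and depth limits what a median of 0 can show.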

Other observations

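Genes of protein folding and of the endoplasmic reticulum stress response were mixed in p27 high cells. Of 18 measured, none was past 2-fold higher and 1 past 2-fold lower, against 7.56% and 12.7% of all genes measured, and the median log2 fold was -0.08. Atf4, the main transcription factor of the integrated stress response, was at 175 CPM in control and 342 in LPS cells, and Hspa5, the chaperone BiP, at 646 and 1159.6. Trib3, a pseudokinase known as an Atf4 target, was lower at 44.95 and 18.7 CPM, and the co-chaperone Dnaja1 was at 124 and 75.6. None of 8 measured genes of the Myc network was past 2-fold, with a median of -0.31. In that list Mxd1, a repressor that competes with Myc, was at 25.5 and 45.6 CPM and the related Mnt at 15.4 and 8.89.

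Receptors for inflammatory cytokines and growth factors had 4 of 9 measured genes past 2-fold higher (44.4%, against 7.56% of all genes measured) and 1 lower, with a median log2 fold of 0.06. Csf2rb, the shared chain of the receptors for GM-CSF and interleukin 3, was at 14.7 and 42.9 CPM, and Il1r1, the interleukin 1 receptor, at 1.06 and 12.4. The receptor kinase Axl, on the macrophage list, was at 11.2 and 36.1 CPM. Bst2, which encodes tetherin and is on both the antiviral and the dendritic cell lists, was at 65.2 and 188 CPM. Each value here is from 1 sample a group, with no test.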
